A study of Homo sapiens with 5 samples.

Results

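KAT7 and H3K27ac were compared summit by summit in HCT116 cells, a human colorectal cancer line, 48 h after transfection with a control siRNA. All 122439 summits of the control KAT7 immunoprecipitation and all 29429 summits of the control H3K27ac immunoprecipitation were taken, 151868 of the 209263 summits in the series. The other lists came from cells given an siRNA against the noncoding RNA ENO1-IT1 (56450 summits for the same antibodies) and from input DNA of unstated siRNA (945 summits), and they serve here as further readouts of the control positions. Groups were assigned by sample titles, and each group was 1 library. Without replicates no test between libraries was made, and all comparisons describe these lists. The peak names carry prefixes with the letters KO, which do not say which cells received which siRNA. Apart from these letters the cells carry no stated genetic change, and nothing in the lists measures the siRNA target.

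Each list gives the point of highest signal of every called peak, with a score that is the -log10 of a p or q value. The score serves here to order summits within a list, where rank 1 is the highest. Summit lists carry no reads, so the depth behind a score is unknown. Intervals are exact Clopper-Pearson 95% intervals and cover counting error only. Positions are hg19 and count from 1. No gene annotation or genome sequence of that build was used, so positions were not assigned to genes, exons or promoters and no sequences are shown.

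KAT7, also known as HBO1, is a lysine acetyltransferase that works in complexes with BRPF or JADE scaffold proteins and was first described as a partner of the origin recognition complex. BRPF scaffolds direct it to histone H3 and JADE scaffolds to histone H4. H3K27ac is written chiefly by other enzymes, EP300 and CREBBP, and marks active promoters and enhancers, where it often covers several neighbouring nucleosomes. The design text places KAT7 and H3K27ac side by side without stating how they should coincide in unperturbed cells.

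Most KAT7 positions lay far from H3K27ac, whereas most H3K27ac positions had KAT7 somewhere nearby. The median distance from a KAT7 summit to the nearest H3K27ac summit was 93167 bp (quartiles 24805 and 315692). In the other direction it was 6654 bp (1826 and 15100). The lists differ in length and spacing. Neighbouring KAT7 summits were a median of 15427 bp apart, so a KAT7 summit within 10 kb is common for any position. Beyond 10 kb of the other mark lay 105471 KAT7 summits (86.1%) and 11154 H3K27ac summits (37.9%). The KAT7 values describe mainly weak calls, since 87779 of the 122439 KAT7 summits scored below 3. Of the 1000 highest-scored KAT7 summits, 603 lay beyond 10 kb. At the distance of 500 bp used to call a site shared, 4492 KAT7 summits (3.67% of those tested) and 4368 H3K27ac summits (14.8%) carried both marks. These formed 4189 pairs in which each summit was the nearest of the other.

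The shared sites were divided into 2 kinds at a distance of 50 bp, a limit set after seeing the data. In 2102 pairs the summits lay at most 50 bp apart, which is 1.72% of KAT7 and 7.14% of H3K27ac summits, and 79 of these pairs had the same base. KAT7 summits 0 to 10 bp from H3K27ac numbered 1016, or 92.4 per bp of distance. The number fell to 40.8 per bp at 11 to 25 bp, 19.0 at 26 to 50 bp and 9.16 at 51 to 100 bp. It then stayed near that level, at 8.70 per bp for 101 to 150 bp and 7.58 for 151 to 200 bp, and was 4.24 at 201 to 250 bp. The nearest H3K27ac summit lay to the left of KAT7 in 2199 shared sites and to the right in 2214, so neither side was favoured along the chromosome.

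The share of KAT7 summits with H3K27ac followed the KAT7 rank closely. Among the 100 highest-scored KAT7 summits, 68 had H3K27ac within 500 bp (57.9 to 77.0%) and 65 within 50 bp. At ranks 101 to 500 the share within 500 bp was 36.3% (31.5 to 41.2%), at ranks 501 to 1000 it was 21.0% (17.5 to 24.8%) and at ranks 1001 to 5000 it was 12.3% (11.3 to 13.3%). Neighbouring intervals in this order did not overlap. Below the score of 3, at ranks 34661 to 122439, 2.54% (2.44 to 2.65%) were shared. Nearly all of the gradient came from coincident summits. Within 50 bp the share ran from 65.0% to 0.718% over these ranks, whereas the share at 51 to 500 bp was 3 of 100 in the first class and 1.82% in the last.

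Many strong KAT7 summits nevertheless had no listed H3K27ac summit nearby. Other acetylation was not measured. Among the top 100, 25 had no H3K27ac summit within 10 kb, and at ranks 501 to 1000 this was 70.6% (66.4 to 74.6%). Between these extremes little was found at intermediate distances. Of the 1000 highest-scored KAT7 summits, 286 lay within 50 bp of H3K27ac, 32 at 51 to 500 bp, 18 at 501 to 2000 bp, 61 at 2001 to 10000 bp and 603 beyond.

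The H3K27ac ranks gave a similar gradient with a longer tail. Among the 100 highest-scored H3K27ac summits 91 had KAT7 within 500 bp (83.6 to 95.8%), and 70 had it within 50 bp. The share was 45.5% (40.5 to 50.5%) at ranks 101 to 500 and 27.2% (23.3 to 31.3%) at ranks 501 to 1000. It then changed little over a long stretch of the list, at 20.3% (17.8 to 22.9%) for ranks 1001 to 2000, 18.9% (17.5 to 20.3%) for ranks 2001 to 5000 and 17.6% (16.5 to 18.7%) for ranks 5001 to 10000, where the intervals of neighbouring classes overlap. In the last class, ranks 20001 to 29429, it was 8.73% (8.17 to 9.32%).

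**Figure D1:**
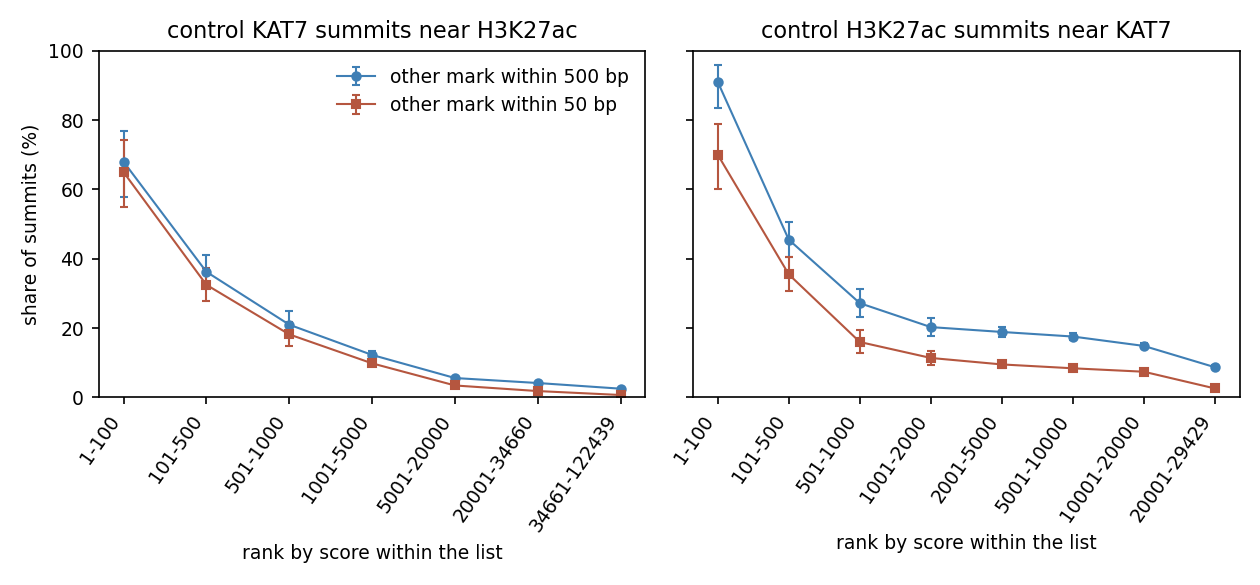
Share of summits (%) with a summit of the other mark within 500 bp (circles) or 50 bp (squares), by rank within the KAT7 list (left) and the H3K27ac list (right) of control siRNA cells; bars are exact 95% intervals, counting error only. Both shares are highest in the top 100 and, for KAT7, the curves for 50 and 500 bp nearly coincide down to rank 5000.

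How far the association reached around a KAT7 summit was measured as the density of H3K27ac summits by distance. For the 1000 highest-scored KAT7 summits there were 7450 H3K27ac summits per Mb at 1 to 10 bp, 1080 at 26 to 50 bp, 180 at 51 to 100 bp and 40.0 at 101 to 200 bp. At 201 to 500 bp the density was 11.7 per Mb, from 7 pairs, against 11.95 per Mb at 50 to 500 kb. From 201 bp to 10 kb the classes of distance gave 0.937 to 1.13 times the value at 50 to 500 kb, each with a counting interval that included 1. Between 10 and 50 kb, with 1036 pairs, the ratio was 1.08 (1.02 to 1.15).

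Within 200 bp of weak KAT7 calls the density was lower than around the top 1000, and it declined less steeply. The score of 2.68 was shared by 52298 KAT7 summits, and 2.31% (2.18 to 2.44%) of them had H3K27ac within 500 bp. Around them the density was 144 per Mb at 1 to 10 bp, 15.7 times its value at 50 to 500 kb, compared with 623 times for the top 1000. At 201 to 500 bp and 501 to 1000 bp it was still 1.77 and 1.36 times that value. The 26261 summits with a score of 1.31 gave 2.09 and 1.65 times at these distances, and 2.70% (2.51 to 2.91%) were shared. For the top 1000 the corresponding ratios were 0.976 (0.392 to 2.01) and 1.004 (0.519 to 1.75), resting on 7 and 12 pairs. These intervals hold most of the values of the weak calls, except that 2.09 lay just above the first interval. Apart from that value, a difference between the top 1000 and weak KAT7 beyond 200 bp was not detectable at this number of pairs. Ranks 1001 to 10000, with 78 and 129 pairs, gave 1.24 (0.978 to 1.54) and 1.23 (1.03 to 1.46). At 201 to 500 bp this lay below the weak calls, whose intervals were 1.62 to 1.93 and 1.87 to 2.34. At 501 to 1000 bp it overlapped the interval for the score of 2.68 (1.26 to 1.47) but not that for 1.31 (1.49 to 1.82). Among summits within 1000 bp of H3K27ac, the median distance was 7 bp for the top 100 KAT7 summits, 136 bp for ranks 20001 to 34660 and 210 bp for lower ranks.

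**Figure D2:**
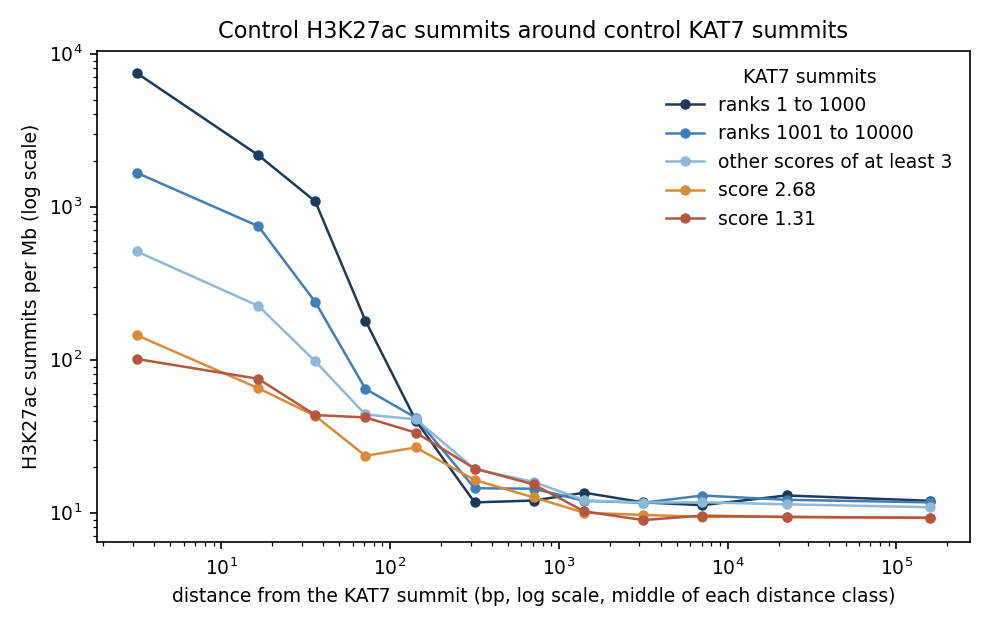
Density of control H3K27ac summits (per Mb, log scale) against distance from control KAT7 summits (bp, log scale), for 5 classes of KAT7 summits by rank or shared score. The line for ranks 1 to 1000 starts at 7450 per Mb and is near its distant level at 201 to 500 bp. It rests there on 7 pairs, too few to set it apart from most values of the weak calls. The lines for scores of 2.68 and 1.31 start lower and decline until about 1000 bp.

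Coincident sites differed from other acetylated sites in their surroundings. An H3K27ac summit with no other within 5 kb was called isolated, and so were 35.2% of the 29429 summits. Of the 2102 H3K27ac summits with KAT7 within 50 bp, 81.4% (79.7 to 83.1%) were isolated. This applied to 46.5% (44.4 to 48.6%) of the 2266 with KAT7 at 51 to 500 bp, and to 31.0% (30.4 to 31.6%) of the 21763 with no KAT7 within 2 kb. Inside the class of 51 to 500 bp the isolated share fell with distance. It was 64.8% at 51 to 100 bp, 52.8% at 101 to 200 bp and 33.7% at 201 to 500 bp. The number of neighbours was not used to form the classes. The order was the same within each of 5 rank classes of H3K27ac. At ranks 1 to 500 the isolated share was 90.1% (85.3 to 93.8%) of 212 coincident summits and 29.1% (22.9 to 35.8%) of 203 with no KAT7 within 2 kb. At ranks 20001 to 29429 it was 72.4% (66.3 to 77.8%) and 29.6% (28.6 to 30.7%). When only summits scoring at least 10 in both lists were kept, which thins the neighbours, the shares were 95.6% and 68.4%.

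**Figure D3:**
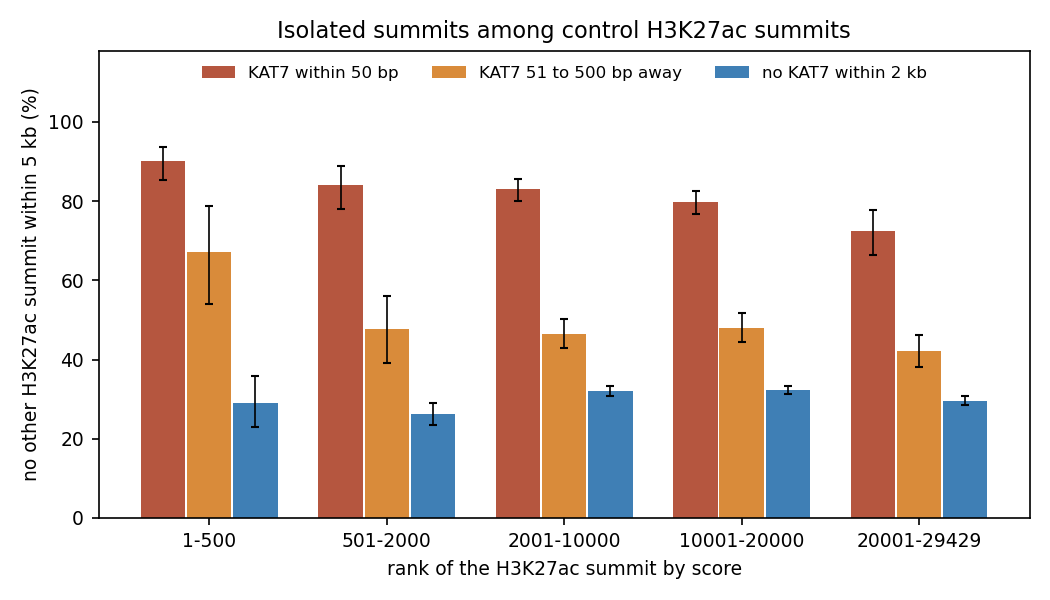
Share of control H3K27ac summits (%) with no other H3K27ac summit within 5 kb, by rank of the H3K27ac summit and by the distance of the nearest control KAT7 summit; bars start at 0 and carry exact 95% intervals. In each rank class the summits with KAT7 within 50 bp are the most often isolated, from 72.4% to 90.1%, and those without KAT7 within 2 kb the least, from 26.2% to 32.3%.

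Counted per summit, KAT7 was more frequent at lone H3K27ac summits than at members of dense groups, although most lone summits had none within 500 bp. Among H3K27ac ranks 1 to 500, 78.1% (73.0 to 82.7%) of the 297 isolated summits had KAT7 within 500 bp. It was 23.97% (17.3 to 31.7%) for the 146 with 1 or 2 others within 5 kb, and 6 of 57 for those with 3 or more (10.5%, 3.96 to 21.5%). Over the whole list these shares were 26.7%, 9.27% and 5.62%. H3K27ac summits at most 12.5 kb apart were then stitched into regions, extended by 500 bp at each end. The 8158 regions of 1 summit held 315 KAT7 summits per Mb, and those of 2 to 4 summits 78.8. Regions of 5 to 9 summits held 52.9 and the 167 regions of 10 or more held 47.5, close to the 40.7 per Mb over all chromosomes. In the last of these, 1.52% of 2500 H3K27ac summits coincided with KAT7, against 18.7% in regions of 1 summit. Counted per region the order was different, since a long region has many summits. KAT7 lay within 500 bp of some H3K27ac summit in 44.9% (37.2 to 52.8%) of the regions of 10 or more and in 29.3% (28.3 to 30.3%) of those of 1, and a coincident summit was present in 15.6% and 18.7%. Both shares were lowest in regions of 2 to 4 summits, at 20.8% and 7.23%. In regions of 5 to 9 summits they were 33.8% and 10.7%. The margin makes up all of a region with 1 summit and little of a long one, so the densities are not over like stretches.

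The 5 stitched regions with the most H3K27ac summits had few with KAT7. On chromosome 1 at 8078215 to 8275424, 64 H3K27ac summits with scores up to 43.6 included 4 with KAT7 within 500 bp and 1 coincident. On chromosome X at 114960736 to 115004733, 43 H3K27ac summits lay in 44.0 kb, and no KAT7 summit fell inside. On chromosome 3 at 98231843 to 98314016, 1 of 41 had KAT7. On chromosome X at 45604730 to 45668191, 1 of 37 did, and on chromosome 7 at 130597596 to 130693651 none of 35 did, although 2 KAT7 summits fell inside that region. These 5 were chosen for their number of H3K27ac summits, after the lists had been seen.

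The scores of the marks were ranked more alike at coincident sites than at the wider ones. Across the 2102 pairs within 50 bp Spearman's rho between the KAT7 and H3K27ac scores was 0.48, and across the 2087 pairs 51 to 500 bp apart it was 0.14. These are descriptions across sites of single libraries, which share cells and local sequence. The median KAT7 score was 5.80 in the first kind and 2.68 in the other, while the median H3K27ac scores were 9.68 and 8.49. The KAT7 quartiles were 2.68 and 11.4 in the first kind but 2.43 and 4.28 in the other, a narrow range with many ties. Its part in the lower rho was not tested. Among coincident pairs rho was 0.50 where the H3K27ac summit was isolated and 0.29 where it was not. In 153 of the coincident pairs both summits were in the top 1000 of their lists, compared with 23 of the wider pairs. High rank in one list did not fix it in the other. Of the 68 shared sites among the top 100 KAT7 summits, 37 had an H3K27ac partner in its own top 100, and 5 had a partner ranked beyond 10000.

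**Figure D4:**
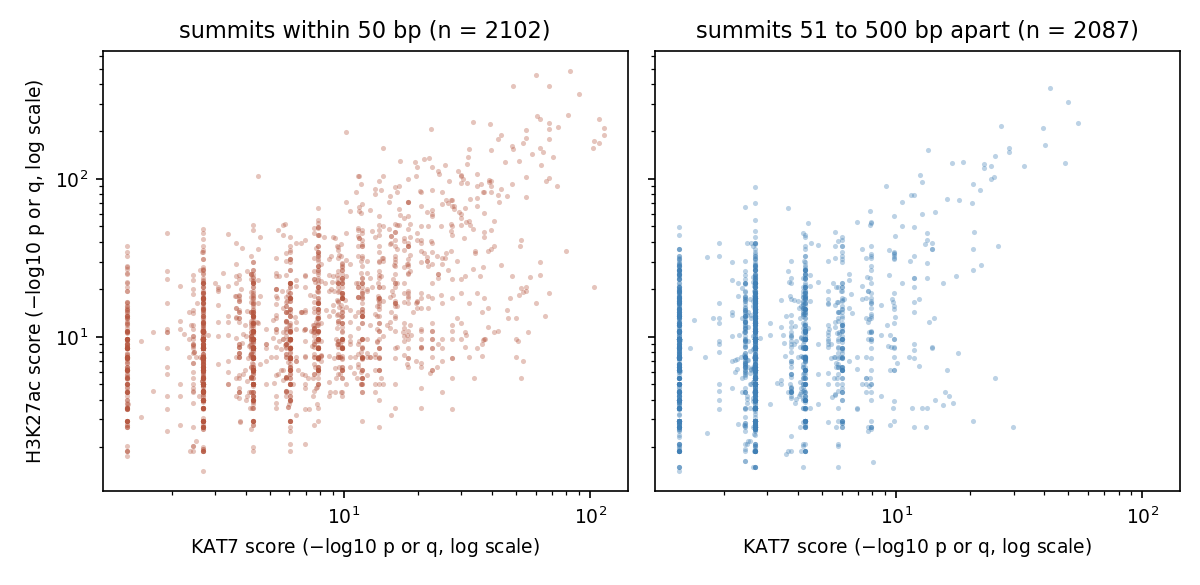
Scores of mutually nearest KAT7 (x axis) and H3K27ac (y axis) summits in control siRNA cells, both on log scales, for pairs within 50 bp (left, n = 2102) and 51 to 500 bp apart (right, n = 2087); each point is a pair. The vertical stripes are KAT7 scores shared by many summits, and high scores for both marks are mostly in the left panel.

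The sites ranked best for both marks were all coincident and all isolated. The first, by the poorer of its ranks, was on chromosome 8 with KAT7 at 22254015 (score 90.2, rank 9) and H3K27ac at 22254006 (score 346, rank 7). On chromosome 2, KAT7 at 102402210 (score 108, rank 4) lay 3 bp from H3K27ac at 102402213 (score 241, rank 12). The highest H3K27ac score of the list, 485 on chromosome 11 at 11268273, lay 30 bp from KAT7 at 11268243 (score 83.0, rank 12). The highest KAT7 score, 113 on chromosome 19 at 4247651, lay 12 bp from H3K27ac at 4247639 (rank 19). The KAT7 summits of the others of these 8 were chr12:124577642, chr15:45754087, chr6:42230245 and chr7:157254091, at 44, 1, 6 and 50 bp from H3K27ac. After ENO1-IT1 siRNA each of the 8 KAT7 positions again had a KAT7 summit within 26 bp and an H3K27ac summit within 69 bp. The nearest input summit to any of them was 685794 bp away.

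KAT7 sites of like strength without a listed H3K27ac summit within 10 kb were of both sorts after knockdown, listed again or not. The first of the 8 highest with no H3K27ac within 10 kb lay on chromosome X at 99283433 (score 101, rank 8), 424575 bp from H3K27ac. The next lay on chromosome 1 at 43174837 (score 83.6, rank 11), 26318 bp from H3K27ac, and had a knockdown KAT7 summit 11 bp away. The site on chromosome 7 at 107410618 (score 70.8, rank 19) likewise had one 14 bp away. The remaining 5 were chr13:75558071, chr5:61134545, chr15:55218251, chr8:3518046 and chr2:151866650, with scores from 60.2 to 76.3. For these and the chromosome X site the nearest knockdown KAT7 summit was 5304 to 132928 bp away. None of the 8 had a knockdown H3K27ac summit within 10 kb, the nearest being 25839 bp away.

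H3K27ac sites without KAT7 within 10 kb were few at the very top of the list and common below it. They made up 7 of the 100 highest-scored H3K27ac summits, 25.75% of ranks 101 to 500 and 34.2% of ranks 501 to 1000, or 281 of the top 1000. Of the 8 with the highest scores, 5 lay within 391 kb on chromosome 1, at 16840891, 16993560, 17066894, 17222355 and 17231574, with scores of 94.5, 191, 191, 85.7 and 97.0. The pair on chromosome 8, at 94858374 (score 119) and 94891889 (score 95.6), lay 33.5 kb apart. The eighth, on chromosome 10 at 114277890, scored 95.6. In contrast with the sites that carried both marks, 6 of these 8 had 1 to 3 other H3K27ac summits within 5 kb. All 8 had a knockdown H3K27ac summit within 946 bp, and 7 within 284 bp.

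After ENO1-IT1 siRNA, 71.9% of all control H3K27ac summits had an H3K27ac summit within 500 bp and 13.5% had a KAT7 summit. How many of all these summits had neither was not counted, so the counts of such sites that follow cannot be called high or low. Among the 2102 coincident sites 67 had neither mark listed within 500 bp after ENO1-IT1 siRNA. Of these 67, 9 lay on chromosome 1, which held 163 of the 2102 coincident sites. The pair of these 9 with the highest H3K27ac ranks lay in the stretch that general knowledge of the hg19 map gives to ENO1, the enolase gene that hosts ENO1-IT1. They are named because that RNA was the siRNA target, and were picked by their absence after knockdown, so this absence is a description of the choice. H3K27ac at 8937810 (rank 25) and KAT7 at 8937804 (rank 99) were 6 bp apart. H3K27ac at 8935949 (rank 71) and KAT7 at 8935948 (rank 450) were 1 bp apart. Each of these H3K27ac summits had 3 others within 5 kb, so neither was isolated.

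Whether KAT7 was listed again after ENO1-IT1 siRNA followed the distance between the marks of the control site. Among all control H3K27ac summits 13.5% had a knockdown KAT7 summit within 500 bp. The share was 90.0% (88.6 to 91.3%) where control KAT7 had been within 50 bp, 64.6% at 51 to 100 bp and 54.2% at 101 to 200 bp. It was 26.96% at 201 to 500 bp and 4.58% at 501 to 2000 bp. Part of this fall is built in. Distances were taken from the H3K27ac position, so KAT7 listed again at its own more distant place can be missed. Measured from the control KAT7 position the shares in the same classes were 90.0%, 64.6%, 55.8%, 40.3% and 11.3%. The H3K27ac mark itself, listed again at 71.9% of all control positions, was found again at 86.1% (84.5 to 87.5%) of the coincident sites and at 70.4% (69.5 to 71.2%) of those without KAT7 within 10 kb. That difference depended on the rank, and coincident sites had the higher scores, with medians of 9.68 and 6.47. At H3K27ac ranks 1 to 500 the shares were 99.1% (96.6 to 99.9%) and 75.5% (66.3 to 83.2%), whereas at ranks 20001 to 29429 they were 58.9% (52.5 to 65.2%) and 58.7% (57.1 to 60.2%). From the side of KAT7, where 6.62% of all control summits had a knockdown KAT7 summit, the shares differed more with the distance to H3K27ac than with the KAT7 rank. Of KAT7 summits coincident with H3K27ac, 98.6% (96.5 to 99.6%) at ranks 1 to 1000 and 74.9% (71.3 to 78.3%) at ranks beyond 34660 were listed again. Of those without H3K27ac within 10 kb, the shares were 10.6% (8.27 to 13.4%) and 3.26% (3.14 to 3.39%). Weak KAT7 calls on H3K27ac were thus found again more often than strong ones away from it. A knockdown H3K27ac summit was present at 4.04% of all control KAT7 summits, at 97.9% of the coincident summits of ranks 1 to 1000 and at 3.32% of those of the same ranks without control H3K27ac within 10 kb.

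In 1385 of the 2102 coincident sites (65.9%) the knockdown lists of both marks also had a summit within 50 bp of the H3K27ac position. Much of the close coincidence at high rank rested on these sites. Without them 5.30% (3.99 to 6.88%) of the 1000 highest-scored KAT7 summits that were left had H3K27ac within 500 bp, in place of 31.8% (28.9 to 34.8%), and the median distance within 1000 bp was 73 bp in place of 10 bp. The isolated share of the 702 coincident H3K27ac summits that were left was 66.2% (62.6 to 69.7%), still above the 31.2% of those without KAT7 within 2 kb. Removing such sites lowers the first values by construction.

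The arrangement of coincident and isolated sites was also present in the knockdown lists. After ENO1-IT1 siRNA, 2741 H3K27ac summits had KAT7 within 50 bp and 87.9% (86.6 to 89.1%) of these were isolated, against 38.0% (37.4 to 38.6%) of the 25984 without KAT7 within 2 kb. The share of the top 1000 KAT7 summits with H3K27ac within 500 bp was 95.2% (93.7 to 96.4%) there and 31.8% in the control. The lowest score of the top 1000 was 55.8 after knockdown and 18.3 in the control, with the depth behind both unknown. These may therefore not be summits of like strength. Ranks from lists of 24611 and 122439 summits cannot show whether the share changed. From the side of H3K27ac the shares of the top 1000 were 35.1% (32.1 to 38.1%) and 40.9% (37.8 to 44.0%).

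KAT7 density differed less between chromosomes than H3K27ac density. Densities are per Mb of the stretch from the first to the last KAT7 summit, not corrected for gaps in the assembly. Over the 23 chromosomes other than Y, KAT7 density ran from 34.9 summits per Mb on chromosome 9 to 47.1 on chromosome 13, a range of 1.35 times. H3K27ac ran from 4.77 on chromosome X to 32.6 on chromosome 19, a range of 6.84 times. Coincident sites varied less than either the wider shared sites or H3K27ac, from 0.529 per Mb on chromosome 4 to 1.56 on chromosome 19, or 2.95 times. KAT7 summits with H3K27ac at 51 to 500 bp ran from 0.419 on chromosome X to 2.97 on chromosome 19, or 7.08 times. As a share of the H3K27ac summits, coincident sites were most frequent on chromosome X, at 16.4%, and least frequent on chromosome 17, at 3.55%.

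On the scale of 1 Mb, KAT7 counts were also less uneven than H3K27ac counts. Over 2885 windows the variance of the H3K27ac counts was 17.5 times their mean of 10.2 summits, and that of all KAT7 counts 2.95 times their mean of 42.2. Isolated H3K27ac summits, with a mean of 3.58, gave a ratio of 3.74, and the 10000 highest-scored KAT7 summits, with a mean of 3.44, gave 1.29. Ratios of classes with different means are not over like densities. The 1000 highest-scored KAT7 summits (mean 0.344) gave 1.04, coincident KAT7 summits (0.724) 1.35 and those with H3K27ac at 51 to 500 bp (0.823) 2.32. The counts of coincident KAT7 summits and of all H3K27ac summits had a Spearman's rho of 0.38 across windows, and those of KAT7 summits with H3K27ac at 51 to 500 bp a rho of 0.61. Both share the H3K27ac list with the count they are set against, and windows are not replicates. For KAT7 classes formed without the H3K27ac list, rho with all H3K27ac summits was lower. It was -0.098 for all KAT7 summits, 0.22 for ranks 1 to 10000 and 0.13 for ranks 1 to 1000.

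**Figure D5:**
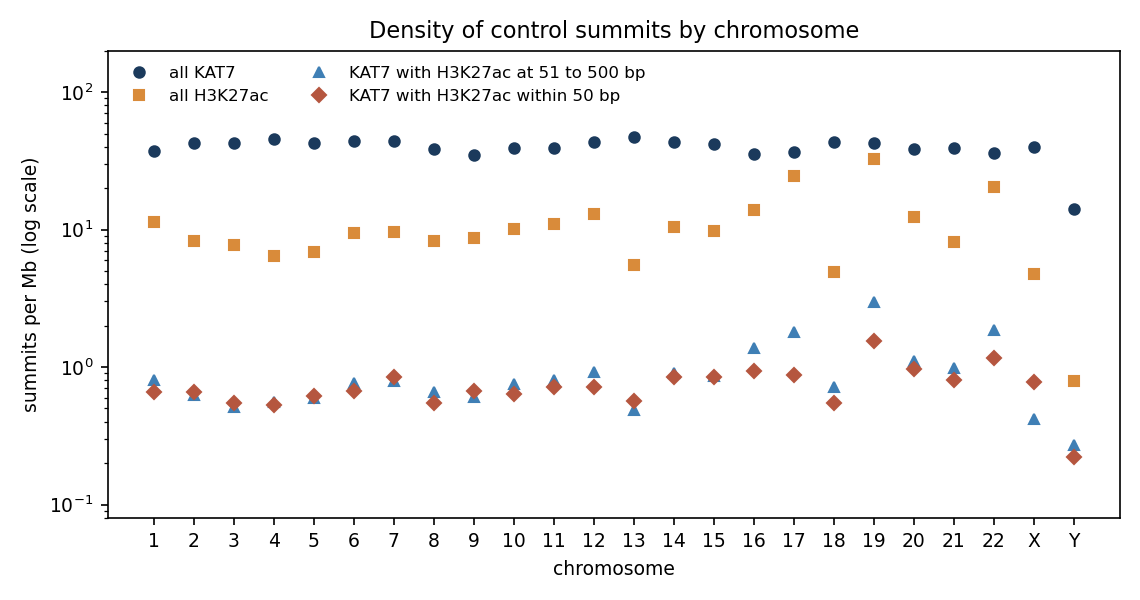
Density of control summits (per Mb of the stretch from the first to the last KAT7 summit, log scale) on each chromosome, for all KAT7 and H3K27ac summits and for KAT7 summits with H3K27ac within 50 bp or at 51 to 500 bp. All KAT7 summits lie between 34.9 and 47.1 per Mb outside chromosome Y, while H3K27ac and the wider shared sites peak on chromosome 19.

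Few summits of either mark lay near an input DNA summit, and shared sites made up a larger part of those that did than of the lists as a whole. Within 1000 bp of an input summit lay 44 of all KAT7 summits (0.0359%), and 22 of these 44 were among the 4492 with H3K27ac within 500 bp (0.490%, 0.307 to 0.741%). The coincident KAT7 summits accounted for 6 of 2102 (0.285%, 0.105 to 0.620%). The share was highest in a small class, the KAT7 summits of ranks 1 to 1000 with H3K27ac at 51 to 100 bp, where 3 of 18 were near input (16.7%, 3.58 to 41.4%). From the other side, 43 of all H3K27ac summits (0.146%) were near input, 19 of them among the 4368 with KAT7 within 500 bp. At H3K27ac ranks 1 to 500 this was 5 of the 212 coincident summits (2.36%, 0.770 to 5.42%) and 6 of the 38 with KAT7 at 51 to 100 bp (15.8%, 6.02 to 31.3%). Of the 603 KAT7 summits of ranks 1 to 1000 without H3K27ac within 10 kb none was near input. By the limit of 3 counts this allows a share of up to 0.498%, and the upper Clopper-Pearson bound is 0.610%. Removing all summits near input moved none of the recomputed shares beyond its counting interval.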

How the data were processed

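The samples were 5 ChIP-seq libraries of HCT116 cells: H3K27ac and KAT7 after control siRNA, the same after ENO1-IT1 siRNA, and input. Bowtie, MACS2 and hg19 are named in the submitters' processing notes; their versions and options, and the control used for calling, were not given in the sources used here. Each deposited list holds 1 bp summits with a -log10 p or q value as score, and the peak names carry a tag for duplicate removal. Depth is unknown.

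Nearest distances, densities and shares were computed in Python 3.11.15 (pandas 2.3.3, numpy 2.4.6, SciPy 1.17.1, matplotlib 3.10.9). Ties in score were ordered by chromosome and position. The code was tested on simulated lists. The named regions are the 8 first of each of 3 classes: both marks by the poorer rank, and each mark alone beyond 10 kb by score, with the ENO1 sites chosen as stated beside them. Intervals of density ratios are exact Poisson intervals of the pairs. The lists and comparisons were chosen with earlier results of these data known. Alternatives were other distances, score minimums, list lengths, merging within 500 bp, chromosomes 1 to 22 and X, and removal of summits near input. The 50 bp and 5 kb classes and leaving out sites present within 50 bp in all 4 antibody lists were added after seeing the data.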

Additional observations from a re-analysis of the deposited data

How the results depend on the processing

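With 1 library per group no result has a replicate check, and depth is unknown. No paired analysis was possible because each group holds 1 library and no test was made. Of 71 recomputed values 31 stayed within the counting interval of the reported value; restriction to chromosomes 1 to 22 and X, or removal of summits near input, moved none. At 100, 250, 1000 and 2000 bp the share of KAT7 summits with H3K27ac was 2.09%, 2.93%, 4.50% and 5.70%, and of H3K27ac summits with KAT7 8.70%, 11.9%, 19.5% and 26.05%. For the top 1000 H3K27ac summits it was 34.8% at 100 bp and 48.0% at 2000 bp. For KAT7 and H3K27ac in turn, the shares were 6.53% and 7.64% with KAT7 scores of at least 3, 14.6% and 5.33% with scores of at least 10 in both lists, 6.91% and 6.87% with as many KAT7 as H3K27ac summits, and 2.50% and 10.6% without sites found in all 4 lists. Merging gave 3.47% for KAT7. With the top 500 and top 5000 in place of the top 1000, KAT7 gave 42.6% and 16.2%, H3K27ac 54.6% and 23.6%, and the median distance of the top 5000 was 15 bp. Without sites found in all 4 lists the top 1000 gave 5.30% for KAT7, 18.7% for H3K27ac and a median of 73 bp, and the density at 1 to 50 bp over that at 50 to 500 kb was 12.3 in place of 224. The isolated share of coincident H3K27ac summits and of those without KAT7 within 2 kb was 83.1% and 35.1% after merging, 86.5% and 40.0% with a neighbour distance of 2000 bp, 75.2% and 25.4% with 10000 bp, and 95.6% and 68.4% with scores of at least 10. The coincident share was 66.2% without sites found in all 4 lists and 78.5% when coincidence meant 100 bp.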

Other observations

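Chromosome Y, left out of the ranges above, held 14.1 KAT7 and 0.795 H3K27ac summits per Mb. Its H3K27ac summits numbered only 47, so shares of them are imprecise. Of these 47, 55.3% had KAT7 within 500 bp and 27.7% within 50 bp. The highest values among the other chromosomes were 24.9% and 16.4%.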
